A study of Mus musculus with 10 samples.

Results

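The accessible chromatin of Wt1 was described from 9 ATAC-seq peak lists of sorted mouse heart cells. Members were the peak summits that lay inside Wt1 or within 100 kb of it on mm10, and an element within 1 kb of the transcription start was taken as the promoter. Of 1071660 summits in the 9 lists, 472 lay in this window, between 42 and 63 per list. They fell into 75 elements, each reaching 250 bp to either side of its centre and none overlapping another, out of 184764 such regions in the genome, and 22 of the 472 summits lay over 250 bp from the centre of any element and were left without one. Each element is called here by the distance of its centre from the Wt1 start, so that the +41.8 kb element lies 41.8 kb downstream.

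Epicardial cells (CD31-tdTomato+PDPN+) were sorted at E11.5 from pools of 6 hearts and at E17.5 from pools of 4 hearts, with 3 libraries at each stage. Epicardium-derived cells (EPDCs, CD31-tdTomato+PDPN-) were 1 sample at E12.5, whose pool size is not given in the sources used here, and 2 samples at E13.5 from pools of 4 to 13 hearts by the labels. The technical replicates of the second E13.5 sample share 1 peak list. Every embryo carried Wt1 CreERT2/+ and Rosa26tdTomato and was exposed to tamoxifen at E9.5. The tdTomato label thus rested on activity of Wt1 itself at E9.5 in all groups, and 1 Wt1 allele carried the CreERT2 insertion. EPDCs and epicardium were sampled at different embryonic days, so population and stage cannot be told apart in that comparison.

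WT1 is a zinc-finger transcription factor of the mesothelium, and also of the kidney podocyte and the gonad. In the heart it marks the epicardium, the outer mesothelial layer, and takes part in the epithelial-to-mesenchymal transition by which epicardial cells give rise to EPDCs, the mesenchymal cells beneath that layer. Accessible stretches of DNA away from a promoter are candidate regulatory elements, since the transposase of ATAC-seq inserts where nucleosomes are absent.

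Wt1 (ENSMUSG00000016458) spans chr2:105126529-105173616 on the plus strand, 47.1 kb. The antisense RNA gene Wt1os starts next to the Wt1 start and runs upstream on the other strand. Them7 lies downstream of Wt1, and the nearest element in it is at +97.8 kb. By position, 33 elements lay upstream of Wt1, 15 inside it and 27 downstream of it. By annotation (GENCODE vM21), 21 elements lay in Wt1os, 12 in Them7 and 27 between genes. The window held 30.4 elements per 100 kb, against a median of 10.5 over the windows of 21728 protein-coding genes, and 99.9% of these windows were less dense. The same rule gave 17.3 per 100 kb at Tcf21, 17.1 at Tbx18 and 18.8 at Upk3b, other genes of the epicardium.

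The central 201 bases of 6 distal elements are given because their ranks differed between the groups, and were chosen after the values were seen. They are the plus strand of GRCm38.p6 (the mm10 assembly), read from the RefSeq genome. Capitals mark matches, on either strand, to the letters searched, which are AGATAA for GATA factors, TGANTCA for AP-1, GGAATG for TEAD, GGTGTGA for T-box factors, TGCTGAC for MAF, GCGNGGG for the core shared by WT1 and EGR factors, and CAGCTG for an E-box. The MAF letters can share bases with the AP-1 letters.
-36.5 kb, chr2:105089940-105090140, intron of Wt1os: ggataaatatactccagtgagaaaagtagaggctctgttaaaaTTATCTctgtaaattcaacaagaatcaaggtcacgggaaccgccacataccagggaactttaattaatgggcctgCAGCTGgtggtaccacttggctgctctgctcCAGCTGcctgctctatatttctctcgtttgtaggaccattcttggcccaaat
-35.3 kb, chr2:105091147-105091347, intron of Wt1os: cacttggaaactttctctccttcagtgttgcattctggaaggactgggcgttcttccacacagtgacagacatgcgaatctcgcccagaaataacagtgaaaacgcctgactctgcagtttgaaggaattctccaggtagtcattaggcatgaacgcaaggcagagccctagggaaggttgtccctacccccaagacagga
-30.8 kb, chr2:105095597-105095797, intron of Wt1os: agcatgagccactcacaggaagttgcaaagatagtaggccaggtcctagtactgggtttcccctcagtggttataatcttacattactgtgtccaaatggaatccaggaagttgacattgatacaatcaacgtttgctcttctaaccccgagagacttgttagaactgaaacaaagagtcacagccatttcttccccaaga
+41.8 kb, chr2:105168183-105168383, intron 7 of Wt1: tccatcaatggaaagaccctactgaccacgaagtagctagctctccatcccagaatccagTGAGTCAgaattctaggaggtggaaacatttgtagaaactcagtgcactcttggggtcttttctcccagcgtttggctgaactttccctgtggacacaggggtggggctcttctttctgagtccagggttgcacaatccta
+80.2 kb, chr2:105206609-105206809, between Wt1 and Them7: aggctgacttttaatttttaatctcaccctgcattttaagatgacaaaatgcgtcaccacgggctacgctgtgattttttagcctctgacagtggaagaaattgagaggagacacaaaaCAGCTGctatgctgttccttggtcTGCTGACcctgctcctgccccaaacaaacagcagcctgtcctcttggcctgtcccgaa
+94.5 kb, chr2:105220884-105221084, between Wt1 and Them7: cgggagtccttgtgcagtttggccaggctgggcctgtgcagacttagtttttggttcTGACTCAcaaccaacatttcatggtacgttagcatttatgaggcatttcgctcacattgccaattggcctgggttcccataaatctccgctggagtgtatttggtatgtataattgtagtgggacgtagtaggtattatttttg
The +41.8 kb and +94.5 kb elements each held an AP-1 match within the bases shown and 2 over the whole element. The -36.5 kb element held 1 GATA match and 2 E-box matches, and the +80.2 kb element 1 MAF match and 1 E-box match. No match was present in the bases shown of the -35.3 kb and -30.8 kb elements.

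Each element was measured in each list by its rank percentile, that is, the percentile of its strongest summit within 250 bp of the centre among all summits of that list ordered by −log10 p, and 0 where none was called. A percentile of 0 means only that no peak was called, not that the chromatin was closed. The lists held 94909 to 142743 summits, the fewest in E17.5 replicate 1, and the genome background was 2.07 to 10.9 fragments per position, highest in the second E13.5 sample. The 3 EPDC lists also held 252 to 268 summits on sequences outside chromosomes 1 to 19, X and Y, where the epicardial lists held 0, so the lists were not filtered alike. Promoters of the endothelial markers Pecam1, Cdh5, Tie1 and Emcn and of the blood markers Ptprc, Spi1, Gata1 and Hbb-bt were called in 0 of 9 lists. The other endothelial markers, Kdr (88.1 to 93.2, higher in EPDCs than in all epicardial lists) and Tek (78.9 to 85.8), were called in all 9, and the last blood marker, Cd68, ranked 52.2 to 61.1 at E11.5, 71.3 to 79.9 at E17.5 and 0 to 22.2 in EPDCs. Of 10 mesothelial marker promoters, 5 ranked higher and 3 lower at E17.5, and 0 ranked higher and 2 lower in EPDCs. The 10 include the Wt1 promoter itself, which is among the 3 that ranked lower at E17.5. Of 8 mesenchymal ones, 2 ranked higher and 2 lower at E17.5, and 2 higher and 1 lower in EPDCs. Of 6 cardiomyocyte ones, 3 were called in all 9 lists, 1 ranked higher and 2 lower at E17.5, and 0 ranked higher and 1 lower in EPDCs. Over the promoters of all 21728 protein-coding genes, 7.81% ranked higher and 17.6% lower at E17.5, and 4.80% ranked higher and 6.93% lower in EPDCs. Their part in the results at Wt1 was not tested. The promoter of Upk3b, a mesothelial marker, ranked 98.4 to 99.2 at E11.5, 97.0 to 97.9 at E17.5 and 22.8 to 73.6 in EPDCs.

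Across the locus, 21 of 75 elements (28.0%) were called in all 9 lists, against a background of 24.7% of all regions, and 8 (10.7%) were called in 1 list only, against 16.6%. All E11.5 lists called 40 elements (53.3%, against 49.5% of all regions), all E17.5 lists 38 (50.7%, against 39.6%) and all EPDC lists 32 (42.7%, against 39.6%). The element map by list shows 5 columns that stay near the top of the scale, at +0.0, +7.9, +34.6, +36.4 and +99.9 kb, among many that appear in some groups only.

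**Figure D1:**
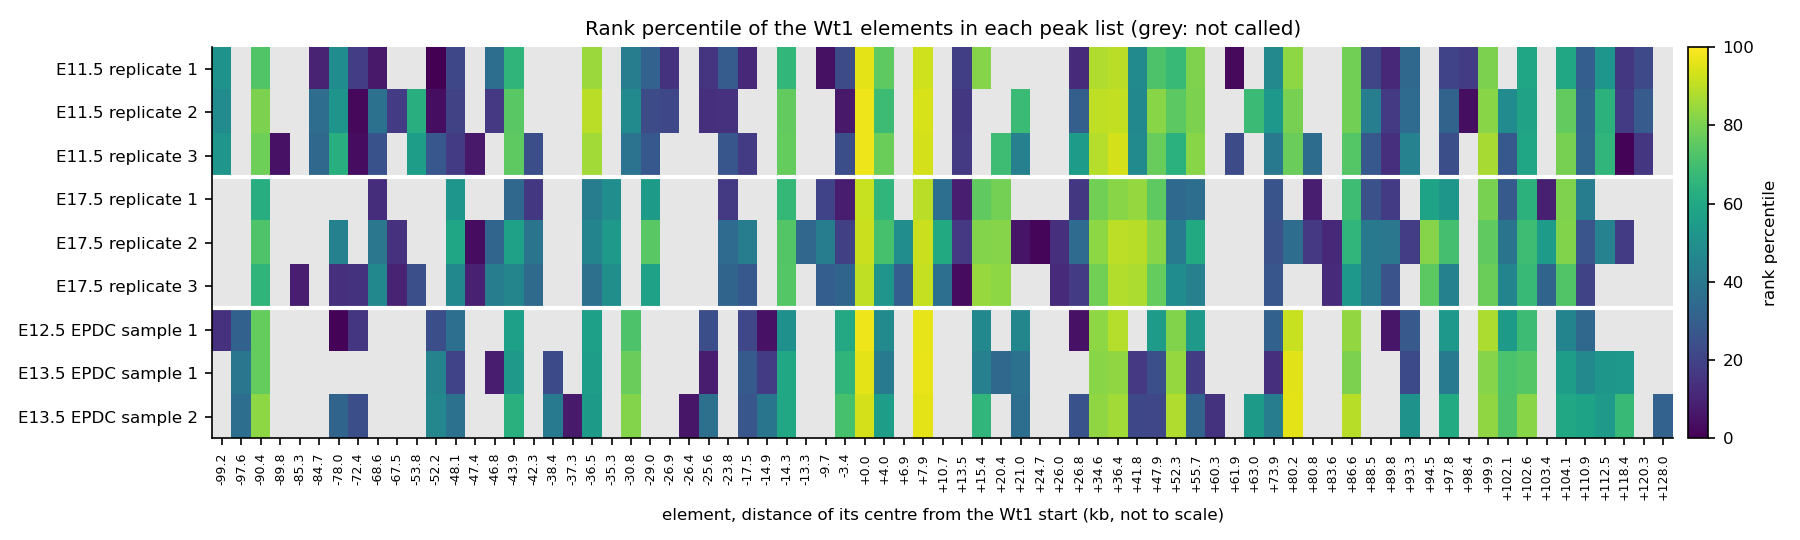
Rank percentile of the 75 Wt1 elements (columns, in order along the chromosome, labelled by the distance of the centre from the Wt1 start in kb and not drawn to scale) in the 9 peak lists (rows), with grey for an element not called. The +0.0 and +7.9 kb elements are bright in every row, and the +94.5 kb element is coloured in the 3 E17.5 rows only.

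The Wt1 promoter ranked above the 90th percentile in every list, and its rank was lowest at E17.5. This element, chr2:105126283-105126783, has its centre in the untranslated part of the first Wt1 exon. It ranked 96.0, 97.5 and 97.4 at E11.5, then 91.7, 92.0 and 90.4 at E17.5, and 97.4, 95.8 and 93.5 in the E12.5 sample and both E13.5 samples of EPDCs. All 3 E17.5 values lay below all E11.5 values, by 5.58 percentile points, and the exact permutation test gave p = 0.1, the smallest that 3 against 3 libraries allow. EPDCs differed from the 6 epicardial libraries by 1.40 points, with overlapping values (exact permutation test, p = 0.5).

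The fall of the promoter's rank at E17.5 was not seen in its fragments. In E11.5 libraries 364, 417 and 367 fragments covered the summit, or 88.8, 109 and 113 times the genome background of the list. In E17.5 libraries 235, 379 and 328 fragments did, or 114, 105 and 96.8 times. EPDC summits had 102, 100.5 and 79.3 times the background. On this scale, chosen after the data were seen, stage groups overlapped and the difference was of the other sign, 1.45 (exact permutation test, p = 0.9). Ranks and fold enrichments are set against the local background, which at this promoter was 30.5 to 56.5 fragments in the epicardial lists. By limma on log2 fold enrichment, the difference at the promoter was -0.20 with SE 0.17 between stages (adjusted p = 0.416) and 0.38 with SE 0.15 in EPDCs (adjusted p = 0.0549).

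The +7.9 kb element, in intron 3 of Wt1 (chr2:105134224-105134724), was the only other element that stayed above 89 in all 9 lists. It ranked 92.8, 93.8 and 93.5 at E11.5, 89.8, 92.0 and 91.1 at E17.5, and 96.5, 96.5 and 95.8 in EPDCs. Each EPDC value exceeded each epicardial one, by 4.09 points on average (exact permutation test, p = 0.0238, adjusted p = 0.136 over all regions). limma gave 0.66 with SE 0.12 for log2 fold enrichment in EPDCs over epicardium (adjusted p = 0.000672). In fragments over genome background EPDCs had 87.6, 105 and 88.9, inside the epicardial span of 70.7 to 109, so the groups overlapped on that scale. E17.5 lay above E11.5 in fragments, opposite to the order of the ranks.

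The other 3 of the highest 5 lay at +34.6, +36.4 and +99.9 kb. The +34.6 kb element, in intron 5 of Wt1, ranked 88.1, 90.4 and 88.8 at E11.5 (mean 89.1 ± 1.17, SD, n = 3), then 78.6, 83.2 and 78.7 at E17.5 (80.2 ± 2.59), and 83.1, 82.1 and 83.5 in EPDCs (82.9 ± 0.71). Its E17.5 values all lay below those of E11.5. The +36.4 kb element lies in an exon of a short Wt1 transcript, 0.16 kb from that transcript's annotated start, and ranked 89.7, 90.9 and 93.6 at E11.5, 82.4, 89.9 and 88.7 at E17.5 and 89.0, 83.4 and 85.9 in EPDCs. Its ranks overlapped in both comparisons. In fragments over genome background its EPDC values of 40.1, 38.7 and 35.9 lay below all epicardial values, 44.4 to 66.5. The +99.9 kb element, in an intron of Them7, ranked 80.4, 82.3 and 87.0, then 80.0, 75.6 and 77.4, then 87.6, 81.7 and 83.6. Its E17.5 values lay just below its E11.5 values.

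**Figure D2:**
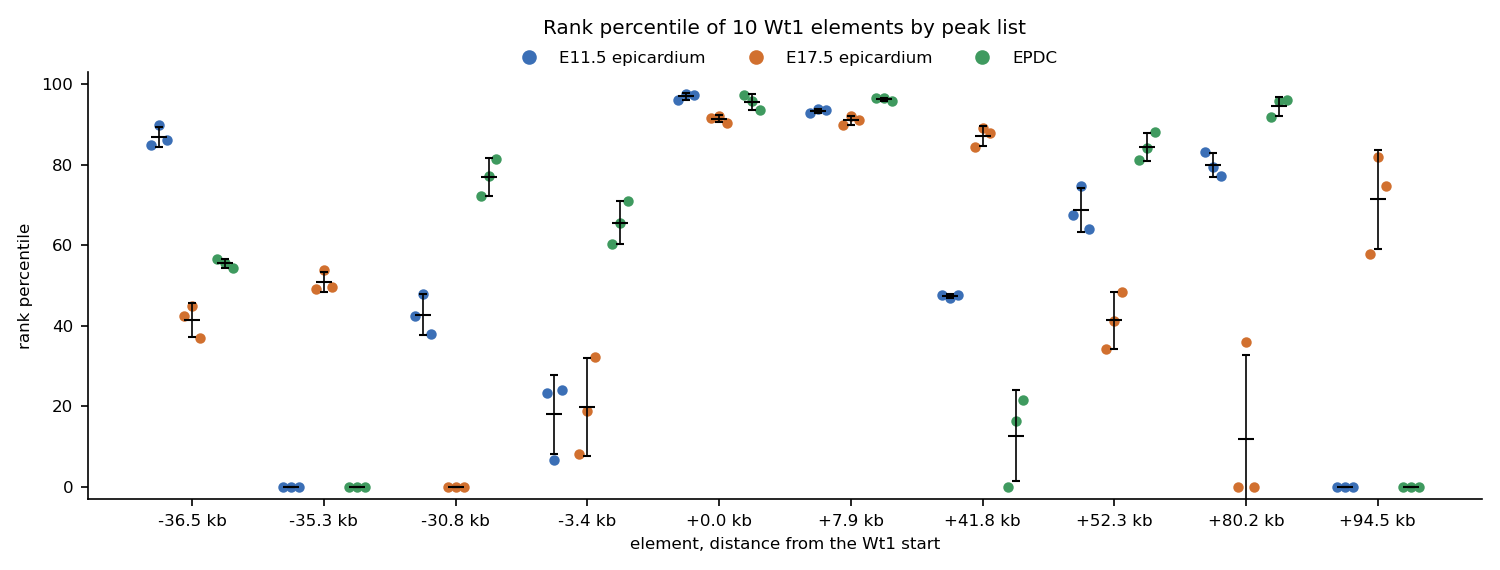
Rank percentile (vertical axis) of 10 Wt1 elements, one point per peak list, coloured by group, with the mean and SD of each group of 3 as black bars. The promoter and the +7.9 kb element stay above 89 in all groups, while the -35.3 and +94.5 kb elements leave 0 at E17.5 only.

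Elements between E11.5 and E17.5 epicardium were compared next, to ask where the locus differed with the age of the epicardium. At 12 of 75 elements (16%) every E17.5 list ranked above every E11.5 list, against a background of 11.0% of all regions. At 20 elements (26.7%) every E17.5 list ranked below, against 27.4%. The share that ranked lower was therefore close to that of the genome, where the median region in all 9 lists fell by 3.53 points. No p under 0.1 is possible for any of them. On fragments over genome background 21 elements were higher and 9 lower, against 21.1% and 20.3% of all regions, and the median region in all 9 lists rose by 0.24 on the log2 scale. A list without a call counted as 0 fragments in these counts, so they partly repeat presence or absence of a call. With equally many top peaks of each list 16 were higher and 14 lower, against 14.3% and 16.6%. Without E17.5 replicate 1, the library of fewest summits, 19 elements ranked higher and 21 lower, against 16.7% and 27.9%.

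In all, 4 elements were called in 3 of 3 E17.5 lists and 0 of 3 E11.5 lists (5.33%, background 4.39%), and 0 of 3 EPDC lists called any of them. The +94.5 kb element, chr2:105220734-105221234 between Wt1 and Them7, ranked 57.9, 81.8 and 74.7 at E17.5, with 29.0, 46.8 and 36.6 times the genome background. Its bases shown hold an AP-1 match. The -35.3 kb element, in an intron of Wt1os, ranked 49.2, 53.8 and 49.6, and the +10.7 kb element, in intron 3 of Wt1, ranked 36.5, 60.7 and 36.4. No interval of an E11.5 or EPDC list overlapped any of these 3. The last of the group, at +103.4 kb in Them7, ranked 8.9, 55.1 and 32.2.

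The +41.8 kb element, in intron 7 of Wt1 (chr2:105168033-105168533), was called at both stages and stood out at E17.5. Its ranks were 47.7, 46.8 and 47.7 at E11.5, 84.3, 89.2 and 87.8 at E17.5, and 0, 16.5 and 21.7 in EPDCs. No 2 groups overlapped. Its summit had 9.27, 9.66 and 10.2 times the genome background in E11.5 libraries, 47.3, 53.7 and 49.6 times in E17.5 libraries, and a ratio of their means of 5.17. It was absent from the fit over regions called in all 9 lists, because the E12.5 EPDC list did not call it. In the fit over regions called in at least 6 lists, limma gave a log2 difference in fold enrichment of 1.08 with SE 0.12 between E17.5 and E11.5 (adjusted p = 0.000192).

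Several of the other elements that ranked higher at E17.5 lay in Wt1os and Them7. The -48.1 kb element, in an exon of Wt1os, ranked 21.6, 19.4 and 17.7 at E11.5, then 52.4, 59.4 and 46.7 at E17.5, with 36.6, 19.96 and 37.9 in EPDCs. It had a limma log2 difference of 1.06 with SE 0.14 (adjusted p = 0.000289). The +97.8 kb element, in the untranslated part of an exon of Them7, ranked 20.3, 31.9 and 24.0, then 52.8, 70.7 and 44.1, then 53.2, 40.9 and 61.1 in EPDCs, with a limma log2 difference of 0.58 with SE 0.14 between stages (adjusted p = 0.0104). This element thus lies in another gene, and its distance from the start of that gene was not measured. The -29.0 kb element ranked 31.4, 22.8 and 27.5 at E11.5, 54.5, 74.4 and 57.4 at E17.5 and 0 in every EPDC list. The -9.7 kb element ranked 4.6, 0 and 0 at E11.5, 20.3, 41.9 and 29.9 at E17.5 and 0 in EPDCs. The +89.8 kb element, between genes, ranked 11.6, 17.04 and 13.7 at E11.5, 17.4, 39.8 and 25.6 at E17.5 and 6.24, 0 and 0 in EPDCs, where it was lower than in all epicardial lists. At -42.3 kb the stages overlapped, with 0, 0 and 24.2 at E11.5, 16.4, 38.4 and 34.5 at E17.5 and 0 in EPDCs.

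Some differences in rank came with a summit that moved rather than with a peak that was lost. The +20.4 kb element was called in E11.5 replicate 3 alone at that stage, at 68.9, and ranked 78.9, 81.7 and 82.8 at E17.5 and 0, 33.8 and 0 in EPDCs. It lies 545 bp from the +21.0 kb element, and intervals that overlapped it ranked 51.5, 68.2 and 68.9 at E11.5, still below E17.5, and 45.9, 37.5 and 40.9 in EPDCs. The +15.4 kb element was called in E11.5 replicate 1 only, because summits ranked 83.5 and 83.6 lay 278 and 337 bp from its centre in replicates 2 and 3. Intervals that overlapped it ranked 81.7, 83.5 and 83.6 at E11.5, with 75.5, 81.5 and 84.7 at E17.5, so the stages overlapped. In EPDCs they ranked 49.2, 43.5 and 65.9, below all 6 epicardial lists, and the summits had 10.02, 11.03 and 16.6 times the genome background, against 52.2, 59.3 and 64.0 times at E17.5.

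A decrease with stage in rank, in fragments and by limma was found at -36.5 kb, in an intron of Wt1os (chr2:105089790-105090290). It ranked 84.8, 89.7 and 86.0 at E11.5, 42.4, 45.0 and 36.9 at E17.5, and 56.5, 55.7 and 54.4 in EPDCs, so that the 3 groups did not overlap. At its summit, 31.7, 43.3 and 39.2 times the genome background at E11.5 compared with 14.0, 12.47 and 10.6 times at E17.5, a ratio of 3.08 between the means. limma gave -0.75 with SE 0.14 (adjusted p = 0.00188). It was the only one of the 21 elements tested that was called lower at E17.5 by limma, and 2 were called higher. These 3 of 21 compare with 25.7% of all 45564 regions tested that were called in either direction. Without the E12.5 EPDC sample 7 of 22 elements were called, against 33.2% of 47584 regions. The -36.5 and -35.3 kb elements lie 1.21 kb apart and changed in opposite directions.

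**Figure D3:**
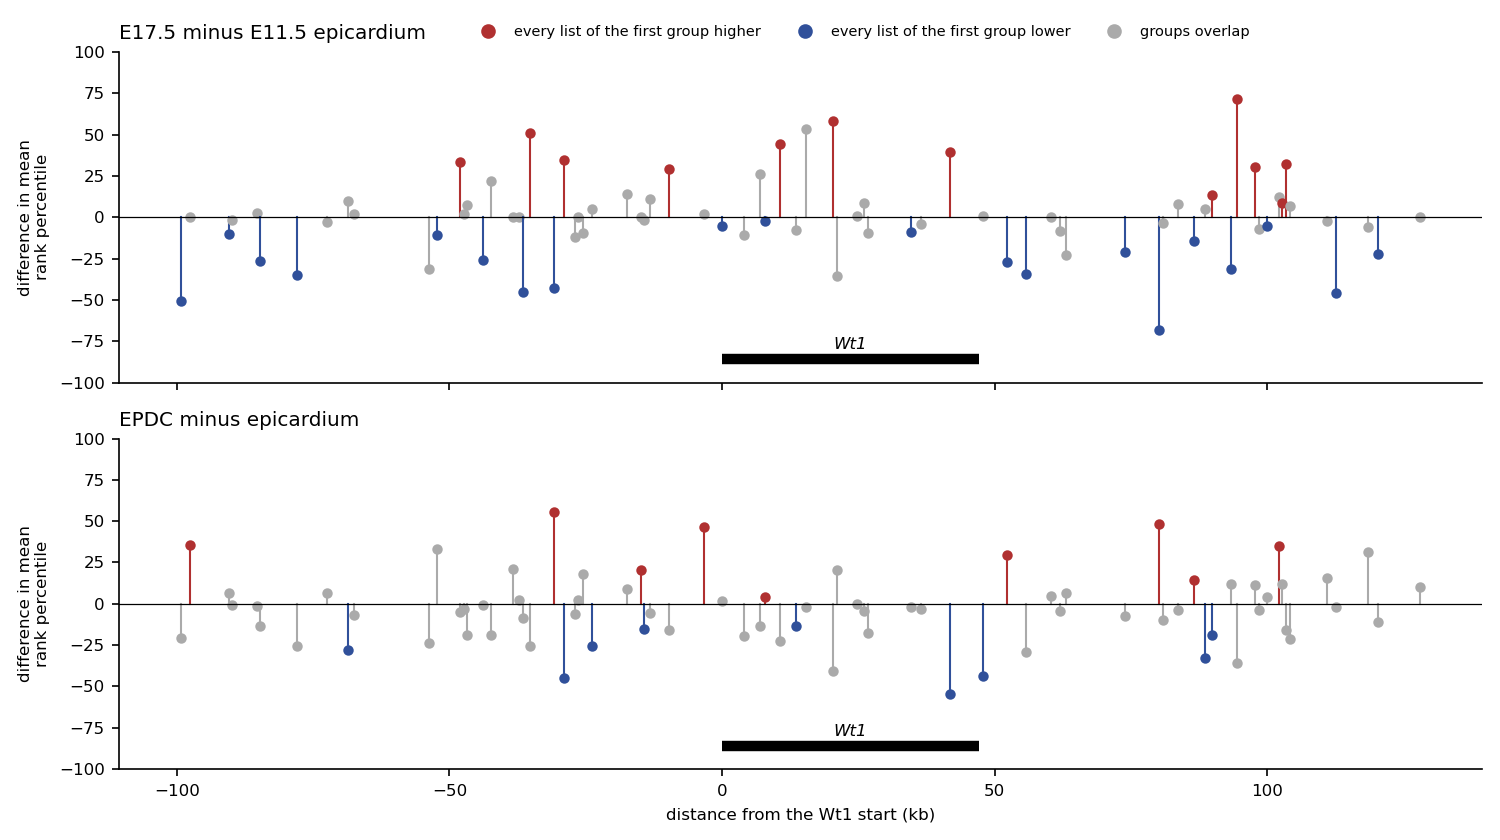
Difference in mean rank percentile (vertical axis) for each of the 75 Wt1 elements by distance from the Wt1 start in kb, with the gene as a black bar, for E17.5 minus E11.5 epicardium (upper panel) and EPDC minus epicardium (lower panel). Red and blue mark elements whose groups did not overlap, 12 higher and 20 lower in the upper panel and 9 higher and 9 lower in the lower panel, and they are spread over the whole window.

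By presence, 5 elements were called in 3 of 3 E11.5 lists and 0 of 3 E17.5 lists (6.67%), below the background of 10.4%. The -99.2 kb element ranked 51.5, 48.1 and 52.3 at E11.5 and 14.4, 0 and 0 in EPDCs. The -30.8 kb element ranked 42.4, 47.9 and 37.9 at E11.5, and more in EPDCs. The other 3 were weaker, at -84.7 kb (9.8, 35.7 and 33.6 at E11.5, 0 in EPDCs), at +120.3 kb (22.3, 28.8 and 16.0, and 0 in EPDCs) and at -52.2 kb (0.4, 3.9 and 27.3, with 23.9, 44.8 and 46.2 in EPDCs). The -25.6 kb element, called in 2 of 3 E11.5 lists at 15.4 and 13.498 and in 0 of 3 E17.5 lists, ranked 23.9, 8.1 and 37.0 in EPDCs.

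The +80.2 kb element, between Wt1 and Them7, showed the largest drop in rank with stage, and this drop depended on where the summit was called. It ranked 83.1, 79.4 and 77.2 at E11.5, whereas the E17.5 lists gave 0, 35.9 and 0. In all 3 E17.5 lists another summit, ranked 77.0, 72.4 and 76.2, lay 294 to 300.0 bp from the centre, inside an interval that overlapped the element. Measured by overlap, E17.5 still lay below E11.5, but by 77.0 against 77.2 at the nearest pair. The +112.5 kb element, in Them7, ranked 52.6, 64.1 and 65.9 at E11.5, then 0, 44.5 and 0 at E17.5, and no other interval overlapped it there. In EPDCs it ranked 0, 53.1 and 54.0.

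EPDCs were then compared with the epicardium, to ask how the locus differed between PDPN- and PDPN+ cells of the same lineage. At 9 of 75 elements (12%) every EPDC list ranked above all 6 epicardial lists, against a background of 9.36%, and at 9 elements (12%) every EPDC list ranked below, against 8.09%. Each of these 18 elements had p = 0.0238 by the exact permutation test, the smallest that 3 against 6 lists allow, and an adjusted p of 0.136 over all regions, so none passed 0.05 by this test. On fragments over genome background 4 elements were higher and 17 lower, against 7.41% and 11.8% of all regions, and the median log2 ratio of regions in all 9 lists was -0.31. Here too a list without a call counted as 0 fragments, and some of the 17 were called in no EPDC list. With equally many top peaks of each list 11 were higher and 4 lower, against 11.1% and 7.06%. Without the E12.5 EPDC sample 14 ranked higher and 10 lower, against 16.9% and 8.84%.

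The +80.2 kb element was the strongest element outside the gene in EPDCs, and the third strongest of the locus by its mean. It ranked 91.8, 95.7 and 96.0, above all 6 epicardial values, and its summit had 47.7, 76.8 and 66.8 times the genome background, against 26.1, 25.3 and 25.3 times at E11.5. The difference between EPDCs and epicardium was 48.5 points with 0 for those E17.5 lists that had only the displaced summit. By overlapping intervals, where the E17.5 lists ranked 72.4 to 77.0, the difference was 16.9 points. The sequence given for it holds a MAF match and an E-box match.

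Closer to the gene, the -30.8 kb element in Wt1os ranked 72.2, 77.2 and 81.5 in EPDCs, against 37.9 to 47.9 at E11.5 and 0 in all E17.5 lists. Its EPDC summits had 15.8, 24.2 and 24.0 times the genome background, and those at E11.5 9.51, 11.2 and 10.2 times. The -3.4 kb element, in an intron of Wt1os just upstream of the promoter, ranked 60.3, 65.6 and 71.0 in EPDCs. In the epicardium it ranked 23.3, 6.7 and 24.1 at E11.5, then 8.1, 18.8 and 32.4 at E17.5. limma gave 0.87 with SE 0.12 (adjusted p = 0.000144). In fragments its EPDC values of 23.6, 31.9 and 31.7 came close to the E17.5 values of 21.3, 22.2 and 25.7, so the groups were not separate on that scale.

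Downstream of the gene, the +52.3 kb element ranked 81.1, 84.1 and 88.1 in EPDCs, 67.4, 74.7 and 63.9 at E11.5, then 34.3, 41.3 and 48.5 at E17.5. Among the 21 elements called in all 9 lists it had the largest limma estimate in EPDCs, 1.29 with SE 0.11 (adjusted p = 4.67e-06). The +86.6 kb element ranked 83.8, 80.5 and 89.3 in EPDCs, 78.6, 78.7 and 73.5 at E11.5, then 69.0, 65.9 and 53.4 at E17.5, with a limma estimate of 0.76 and SE 0.14 (adjusted p = 0.000764). By rank, both were thus highest in EPDCs and lowest at E17.5. In fragments over genome background the groups overlapped, since the lowest EPDC value was 29.4 at +52.3 kb and 30.8 at +86.6 kb and the highest epicardial values were 34.7 and 32.4. The comparisons between stages and with EPDCs share the epicardial libraries.

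In EPDCs alone, 2 elements were called, in 3 of 3 EPDC lists and 0 of 6 epicardial lists (2.67%, background 3.23%). The -97.6 kb element, 1.66 kb from the -99.2 kb element of E11.5, ranked 31.1, 39.2 and 36.1. The -14.9 kb element ranked 4.9, 17.7 and 38.8. Both were in the lower part of the lists.

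The 3 largest deficits in EPDCs, among elements whose groups did not overlap, were at +41.8, -29.0 and +47.9 kb. The +41.8 kb element in intron 7 was 54.5 points lower in EPDCs than in epicardium, with the E12.5 sample, which did not call it, counted as 0. The +47.9 kb element, 0.80 kb past the end of Wt1, ranked 72.1, 82.2 and 76.8 at E11.5, 75.4, 82.2 and 76.3 at E17.5 and 55.3, 24.6 and 21.1 in EPDCs. Its limma estimate was -1.16 with SE 0.20 (adjusted p = 0.000539). Between stages, the means at this element were 77.0 and 78.0 (exact permutation test, p = 0.9). At -29.0 kb, in Wt1os, no EPDC list called the element, and its mean difference was -44.6 points.

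Conversely, 5 elements were called in 6 of 6 epicardial lists and 0 of 3 EPDC lists (6.67%), against a background of 2.12%. They were the -29.0 kb element and 4 weaker ones. The +88.5 kb element ranked 21.0, 42.7 and 27.4 at E11.5, then 24.9, 40.5 and 40.5 at E17.5. The -68.6 kb element ranked 6.7, 37.1 and 25.4, then 12.9, 39.8 and 46.5. The -23.8 kb element ranked 29.0, 14.1 and 26.6, then 17.0, 35.0 and 32.1, and the element 13464 bp downstream of the start, in intron 3 of Wt1, 18.5, 16.2 and 17.0, then 8.6, 16.4 and 2.9. In the second E13.5 EPDC sample a summit ranked 2.62 lay 360 bp from the centre of this intron 3 element. In total 11 elements (14.7%) were called in 3 of 3 E17.5 lists and 0 of 3 EPDC lists, against 6.80% of all regions, and 7 (9.33%) in 3 of 3 E11.5 lists and 0 of 3 EPDC lists, against 7.46%.

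By limma, 12 of the 21 elements called in all 9 lists differed between EPDCs and epicardium at an adjusted p under 0.05, 6 higher and 6 lower. Over all regions tested, 39.6% differed, 19.8% in each direction. Besides those named, the elements at +102.6 kb (0.35, SE 0.10, adjusted p = 0.0129) and -43.9 kb (0.28, SE 0.10, adjusted p = 0.0353) were higher. The -43.9 kb element turned to -0.74 on the scale of fragments over genome background. Its ranks of 56.3, 53.9 and 63.4 in EPDCs lay below 65.5, 74.5 and 75.0 (E11.5) and overlapped 33.8, 57.3 and 45.6 (E17.5). The +102.6 kb element ranked 59.0, 57.5 and 58.7, then 64.4, 69.0 and 67.5, then 68.4, 73.8 and 82.1 in EPDCs.

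**Figure D4:**
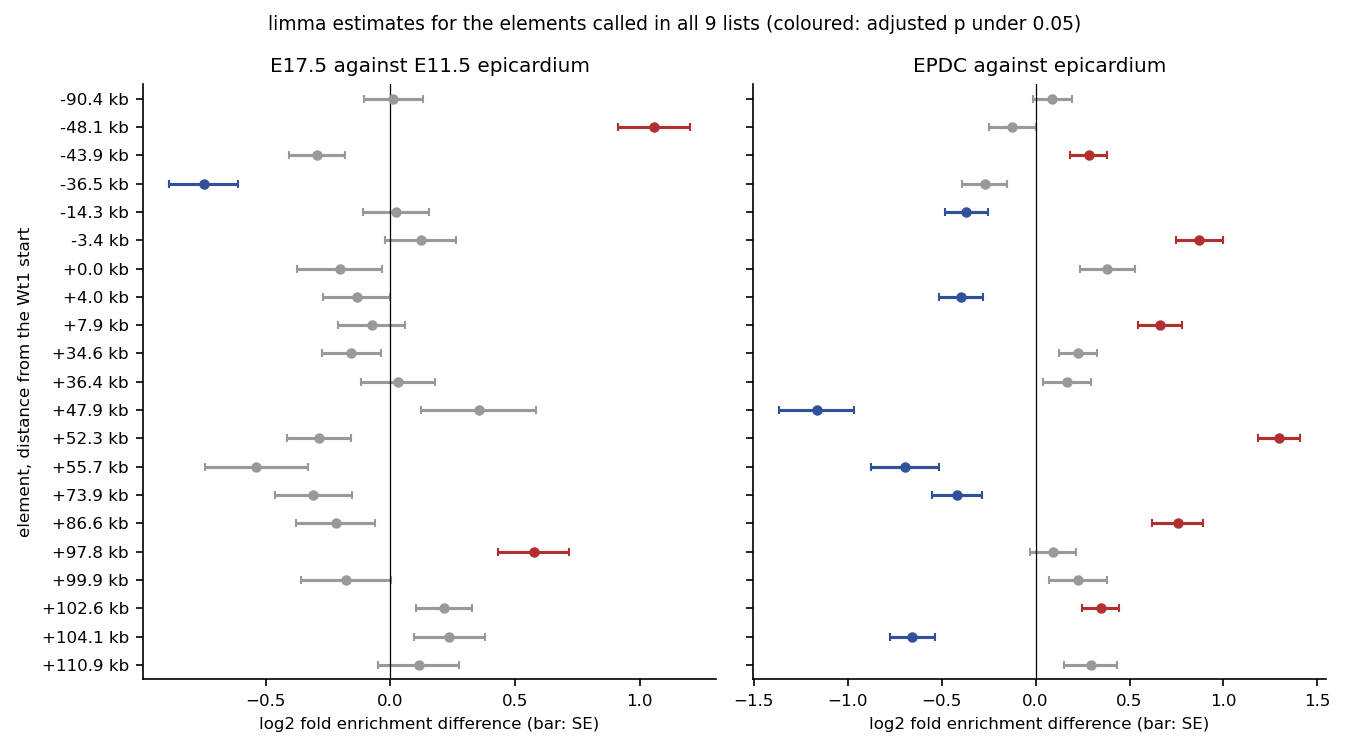
limma estimates of the difference in log2 fold enrichment (horizontal axis, bars are SE) for the 21 Wt1 elements called in all 9 lists (vertical axis), with red and blue for adjusted p under 0.05. Between stages 3 elements are coloured, at -48.1, -36.5 and +97.8 kb, and between EPDCs and epicardium 12 are, from -1.16 at +47.9 kb to 1.29 at +52.3 kb.

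Elements lower in EPDCs by limma were, besides +47.9 kb, those at +55.7, +104.1, +73.9, +4.0 and -14.3 kb. The +55.7 kb element ranked 80.7, 80.3 and 82.1 at E11.5, 36.0, 60.7 and 43.5 at E17.5 and 54.3, 17.8 and 31.7 in EPDCs (-0.70, SE 0.18, adjusted p = 0.0078). The +4.0 kb element lies in intron 1, 0.3 kb before the annotated start of another Wt1 transcript, and ranked 75.0, 68.7 and 77.4, then 65.8, 70.7 and 52.2, then 47.9, 41.79 and 56.1 (-0.40, SE 0.12, adjusted p = 0.0156). Its fragments were 27.9, 32.6 and 35.5 times the genome background in EPDCs and 52.0 to 69.5 times in the epicardium. The -14.3 kb element ranked 66.1, 76.1 and 76.3, then 66.6, 73.3 and 73.5, then 50.03, 60.1 and 59.96 (-0.37, SE 0.12, adjusted p = 0.0214).

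The +104.1 kb element, in Them7, ranked 59.4, 76.1 and 79.4 at E11.5, 80.6, 81.1 and 73.0 at E17.5 and 45.0, 56.1 and 59.5 in EPDCs (-0.66, SE 0.12, adjusted p = 0.001). The +73.9 kb element ranked 47.1, 53.1 and 40.6, then 25.8, 24.9 and 26.8, then 31.1, 14.0 and 42.0 (-0.42, SE 0.13, adjusted p = 0.0252).

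**Figure D5:**
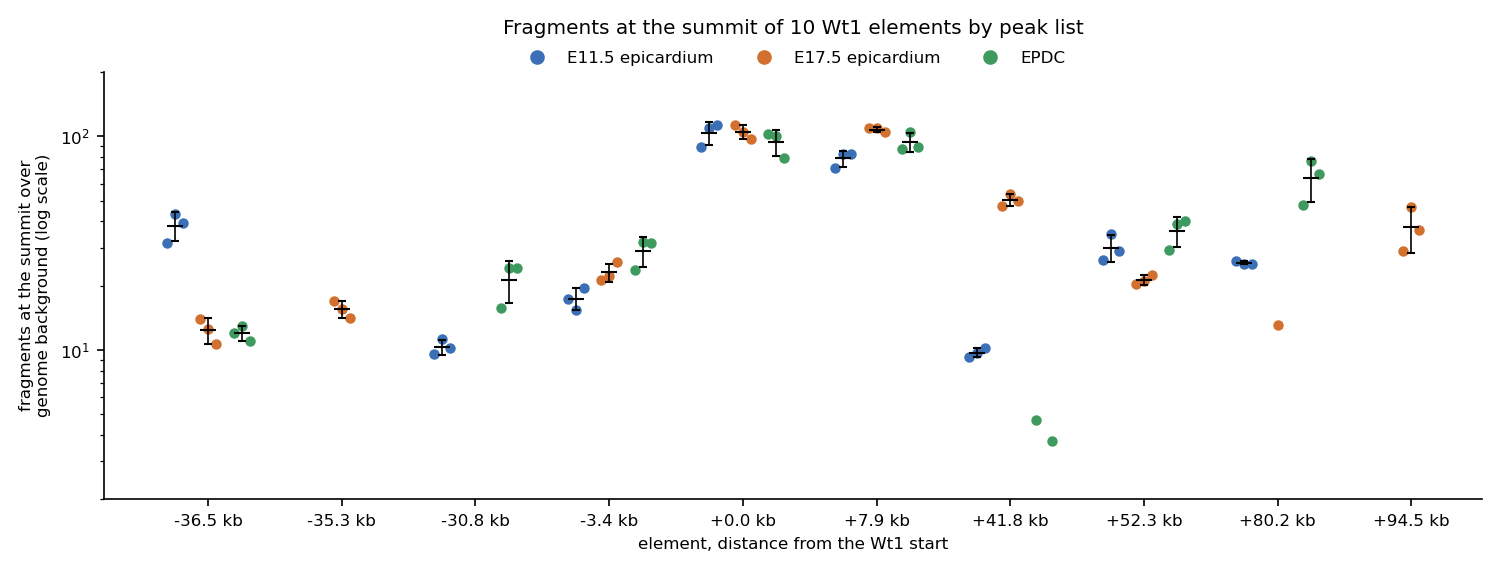
Fragments at the summit divided by the genome background of the list (vertical axis, log scale) for the same 10 Wt1 elements, one point per list that called the element, with the mean and SD where all 3 lists of a group did. The promoter lies between 79.3 and 114 in every list, and the +41.8 kb element rises from 9.27 to 10.2 in the E11.5 lists to 47.3 to 53.7 in the E17.5 lists.

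The other 30 elements had mean percentiles over the 9 lists of 0.17 to 74.2, and 20 of them were called in at most 4 lists. The median GC content of the sequence was 47.5% in the elements and 48.3% over all regions, and 34.7% of the elements and 32.6% of all regions had under 5% of bases in repeats. GATA letters were present in 40% of the elements and 29.8% of all regions, AP-1 in 25.3% and 22.8%, TEAD in 33.3% and 33.1%, T-box in 5.33% and 7.11%, MAF in 16% and 11.2%, the WT1 and EGR core in 13.3% and 15.8%, and the E-box in 36% and 33.5%. The promoter had 66.5% GC and 31 CpG dinucleotides.

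The loci of Tcf21, Tbx18 and Upk3b, by the same rule, are set beside Wt1 by their counts, to be read against the shares of all regions, 11.0% higher and 27.4% lower at E17.5 and 9.36% higher and 8.09% lower in EPDCs. Of 35 elements at Tcf21, 2 ranked higher and 10 lower at E17.5, and 5 ranked higher and 0 lower in EPDCs. Tbx18 had 39 elements, with 2 higher and 13 lower at E17.5 and 3 higher and 3 lower in EPDCs. Upk3b also had 39, with 8 higher and 10 lower at E17.5 and 1 higher and 8 lower in EPDCs. In each EPDC list the Wt1 promoter, at 93.5 or more, stood above the Upk3b promoter, and the promoters of Tcf21 (90.2 to 93.4) and Tbx18 (95.4 to 98.0), transcription factors of the epicardium and its mesenchyme, also stayed high.

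Among 13 epicardial transcription factors, 10 promoters were called in all 9 lists, against 58.5% of all promoters, and at E17.5 0 ranked above and 6 below E11.5, against the 7.81% and 17.6% of all promoters given above. Gata4, Gata5 and Gata6 were among the 6 that ranked lower. In EPDCs 0 ranked above and 2 below the epicardium, Gata4 and Maf, against 4.80% and 6.93% of all promoters. Among 15 known WT1 targets, 11 promoters were called in all lists. At E17.5 4 ranked higher and 2 lower, and in EPDCs 1 ranked higher and 1 lower, to be read against the same shares of all promoters. Amhr2, a receptor of anti-Müllerian hormone, ranked 62.7, 57.9 and 47.0 at E11.5 and 0 in all E17.5 lists. Igf1r, a growth factor receptor, ranked 0, 13.3 and 0 at E11.5, then 56.0, 49.2 and 57.3 at E17.5. Nes, an intermediate filament gene, was the target that ranked higher in EPDCs, at 83.6, 87.8 and 90.0, against 75.7 to 83.4 in the epicardium. The target that ranked lower was Nphs1, at 49.2, 39.2 and 59.6 in EPDCs, against 70.0 to 76.8 in the epicardium.

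The genes whose windows most resembled that of Wt1 over the 9 lists, of 17535 compared, were Isyna1 (r = 0.978), Ankrd39 (0.976), Ankrd23 (0.974), Gm42417 (0.974) and Dpysl5 (0.973). The measure was Pearson's r of the mean rank percentile of a window's elements over windows with 10 or more elements, after the mean of all windows in each list was taken away. Its 9 points share libraries and depth, and the Ankrd23 and Gm42417 windows hold the same 46 elements. It is given as a description only.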

How the data were processed

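The members and lists were chosen with earlier results of these data known. The authors trimmed and aligned the paired reads to mm10 with the nf-core ATAC-seq pipeline, removed duplicates, multi-mapped, mitochondrial and blacklisted reads, and ran MACS2 2.2.9.1 on whole fragments (q-value limit 0.01), with summits called. The deposited lists hold a fold enrichment (a linear ratio over local background), a −log10 p-value and a −log10 q-value per summit; nothing in them was normalized between libraries. The epicardial lists are 1 library each, and 1 EPDC list holds 2 technical replicates. Chromosome 2 of GRCm38.p6 (182113224 bp) contained the last interval of all 9 lists.

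Summits were merged over the genome into regions of 250 bp to either side of a summit, taken in order of −log10 p divided by the list's sum. An element was called in a list where a summit lay within 250 bp of its centre. Fold enrichment and −log10 p were solved for the whole number of fragments at each summit, which succeeded for 100% of summits within a tolerance of 0.001 of −log10 p (relative where it exceeds 1), and the commonest local background was taken as the genome background. E17.5 was compared with E11.5, and EPDCs with all epicardial lists, by exact two-sided permutation tests of rank percentile over libraries, where called means that groups did not overlap, and by limma 3.58.1 (R 4.3.3) on log2 fold enrichment, centred on the median of each list, over regions called in all 9 lists, with Benjamini-Hochberg adjustment over all regions and a threshold of 0.05. The depth of each list is known only from its recovered background of 2.07 to 10.9 fragments, and intervals for counting error were not needed since each test used the spread between libraries.

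Elements named with all values were those within 1 kb of the start, the 5 of highest mean percentile, those called in 3 of 3 lists of one group and 0 of 3 of another, the 3 of largest difference per comparison and direction, and those that passed limma. Elements named outside this rule (+15.4, +21.0 and +89.8 kb) were chosen after their values were seen. Replicate numbers of the 2 stages did not pair the libraries: the correlations of same-numbered deviations were 0.033, 0.091 and -0.053 over 57768 regions. Scripts were tested on simulated data. Alternatives were other rankings, thresholds, overlap rules, normalizations, windows of 50 kb, each library left out and a replicate block; the scale of fragments over genome background and each stage alone against EPDCs were added after seeing the data.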

Additional observations from a re-analysis of the deposited data

Results flagged for a closer look

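The EPDC lists held summits on sequences other than chromosomes 1 to 19, X and Y, 268 in the E12.5 sample, 263 in the first and 252 in the second E13.5 sample, above the 0 of the epicardial lists. They were used in no comparison, and their part in the results was not tested. Groups of 3 lists are too small for a test of single outlying libraries.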

How the results depend on the processing

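Of the alternatives run for named elements, 1687 kept their side of the threshold, 107 passed only in the alternative, 56 no longer passed and 13 reversed. Direction was not compared where neither the main result nor the alternative passed, so the 1687 can include changes of sign. The cause was not tested where a value changed. The 32 elements apart between stages were 34 to 40.0 with each library left out and 21 within 50 kb of Wt1, a narrower window. The 18 elements apart in EPDCs were 18 to 24 with each library left out, 32 against E11.5 alone and 36 against E17.5 alone, where fewer libraries have to be separate. The share of all regions was not taken for each stage alone, the replicate block or most left-out libraries. Those counts therefore have no background here and are not read as a result about Wt1. The promoter's stage difference of -5.58 stayed between -6.05 and -5.11 with each library left out and became 1.45 (exact permutation test, p = 0.9) as fragments over genome background; its EPDC difference was 0.48 to 2.45 with each library left out, 4.19 against E17.5 alone, -1.39 against E11.5 alone and -10.4 as fragments over genome background (in times the background).

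The limma calls between stages, 3 over regions in all 9 lists, were 3 to 7 with each library left out and 7 without the E12.5 EPDC sample. They were 6 over regions in at least 6 lists, 8 on the depth-normalized score, and 9 without and 10 with centring on fragments over genome background. The 12 limma calls in EPDCs, 6 higher and 6 lower, were 8 to 12 with each library left out. Over regions in at least 6 lists, 11 of 34 elements were higher and 7 lower, against 20.4% and 21.8% of all regions tested. On fragments over genome background, 2 were higher and 11 lower without centring (12.4% and 42.4% of all regions tested). With centring 6 were higher and 8 lower (25.8% and 26.2%). With the replicate block, limma over regions of all 6 epicardial lists called 5 of 29 elements higher and 3 lower between stages. Over all 57768 regions the shares were 17.2% and 15.3%. By rank, 36 elements were apart with that block. The replicate numbers are shared only in name, since same-numbered libraries correlated at 0.033, 0.091 and -0.053.

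Reversed stage differences were 0.047 at +7.9 kb on log2 of the depth-normalized score, and, in fragments over genome background, 6.96 at -14.3 kb, 28.8 at +7.9 kb, 7.62 at 13464 bp and 13.1 at +99.9 kb. The EPDC difference at -36.5 kb was 14.1 against E17.5 alone. limma estimates that reversed were, at -43.9 kb in EPDCs, -0.15 on the depth-normalized score and -0.74 without or -0.42 with centring on fragments; at +7.9 kb between stages, 0.45 without and 0.35 with centring on fragments; and in EPDCs without centring, -0.50 at +34.6 kb (adjusted p = 0.00982) and -0.57 at +36.4 kb (adjusted p = 0.00546). An element's rank depends on local background, which differs between lists, and the peak caller's threshold limits what an uncalled element shows.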
